A study of Mus musculus with 4 samples.

Results

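The very broad accessible regions were the 266 regions at least 2000 bp wide among the 55907 regions called in every library, and 90202 merged regions were found in all. Peaks of the 4 deposited lists on chromosomes 1 to 19 and X were merged where they overlapped by at least 1 bp, and a region was kept when all 4 libraries had a peak in it and its outer width reached the limit. The rule therefore took 0.476% of the shared regions, and members were chosen by the merged width of their peaks over all 4 libraries, which is described here and not tested. The contrast between the siRNAs, which the rule did not use, was tested on the widths per library, and these come from the same peaks. The libraries are bulk ATAC-seq, in which Tn5 transposase cuts open chromatin, from the iMGT-Myh6-eGFP-MEF line, which is of mouse embryonic fibroblasts. In every library MGT, the set of Mef2c, Gata4 and Tbx5 that turns fibroblasts towards cardiomyocytes, had been induced with doxycycline, and cells were taken 1 day later. The siChst7 group (2 libraries) had been transfected with an siRNA against Chst7, which encodes a carbohydrate sulfotransferase, and the siControl group (2 libraries) with a control siRNA. All groups thus shared the line, its Myh6-eGFP reporter and the induced factors, and a sample without induction was not analysed here. The labels call the replicates biological without saying that they were separate cultures, so p-values measure the spread between these samples only. Knockdown of Chst7 was not measured here, since an siRNA acts on the transcript.

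The deposited lists held 74402 and 66165 peaks in siChst7 replicates 1 and 2, against 73902 and 75696 in siControl replicates 1 and 2. They covered 42.2 and 36.2 Mb in siChst7 and 41.1 and 41.2 Mb in siControl, so that siChst7 replicate 2 was the shortest list. The read totals behind the lists are unknown. As a check of the labelled cell type, 16 of 20 fibroblast marker genes had a region called in all 4 libraries within 1 kb of a gene end, 10 of 20 sarcomere genes, 5 of 20 markers of endothelium, blood, epithelium and neurons, and 11908 of all 21631 protein-coding genes. A region at a gene end is not specific to a cell type, since 19 of 20 housekeeping genes and 16 of 16 Hippo pathway genes had one too. In bulk samples, fewer cells with an open region and less signal per cell cannot be told apart.

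Open chromatin at a promoter usually spans one nucleosome-depleted stretch around the transcription start, flanked by positioned nucleosomes. Promoters rich in CpG dinucleotides, typical of housekeeping and developmental genes, tend to be open over a longer stretch than promoters poor in CpG, and divergent promoters place starts of a pair of genes on opposite strands within one open domain. Broad open stretches are also known at clustered tRNA and histone genes and at repeated sequences such as ribosomal DNA, where reads of many copies map to few places.

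To show what sequence lies under the broadest members, the promoters of the 5 widest regions that held a protein-coding start and had an entry in the RefSeq table (GRCm38.p6) are printed, each from 250 bases before to 50 bases after the start, 5′ to 3′ on the gene's strand, with every CG dinucleotide in capitals. Nek8 (chr11:78176617-78176916, minus strand) and Tlcd1 (chr11:78177880-78178179, plus strand) share the widest of these regions. Cpt1a (chr19:3323051-3323350, plus strand) and Tll1 (chr8:64205959-64206258, minus strand) follow. Cnppd1 (chr1:75141642-75141941, minus strand) and Retreg2 (chr1:75142536-75142835, plus strand) are a further divergent pair, and Tmc6 (chr11:117780643-117780942, minus strand) is the last.
Nek8: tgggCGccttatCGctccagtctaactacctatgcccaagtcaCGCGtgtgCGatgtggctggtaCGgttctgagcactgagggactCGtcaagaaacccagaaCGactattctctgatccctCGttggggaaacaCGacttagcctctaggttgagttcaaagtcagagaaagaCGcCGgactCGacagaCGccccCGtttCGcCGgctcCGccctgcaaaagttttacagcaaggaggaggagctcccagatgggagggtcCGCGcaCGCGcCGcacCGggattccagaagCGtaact
Tlcd1: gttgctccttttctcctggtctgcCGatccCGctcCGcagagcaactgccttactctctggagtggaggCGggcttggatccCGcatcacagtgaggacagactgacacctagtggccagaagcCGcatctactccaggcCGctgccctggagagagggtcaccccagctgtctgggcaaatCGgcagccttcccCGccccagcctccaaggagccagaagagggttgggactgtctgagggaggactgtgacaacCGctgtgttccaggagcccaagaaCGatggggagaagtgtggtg
Cpt1a: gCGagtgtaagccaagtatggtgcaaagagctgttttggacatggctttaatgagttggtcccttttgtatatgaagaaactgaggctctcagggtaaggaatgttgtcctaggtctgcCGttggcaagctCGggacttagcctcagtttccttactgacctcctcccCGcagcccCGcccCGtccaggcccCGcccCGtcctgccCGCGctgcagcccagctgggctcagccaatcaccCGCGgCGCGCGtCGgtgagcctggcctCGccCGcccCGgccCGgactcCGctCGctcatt
Tll1: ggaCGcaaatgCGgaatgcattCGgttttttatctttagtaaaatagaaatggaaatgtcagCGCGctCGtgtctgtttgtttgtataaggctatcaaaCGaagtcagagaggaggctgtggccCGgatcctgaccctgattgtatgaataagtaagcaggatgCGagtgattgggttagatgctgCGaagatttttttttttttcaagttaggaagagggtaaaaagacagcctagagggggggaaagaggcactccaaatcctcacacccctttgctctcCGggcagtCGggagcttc
Cnppd1: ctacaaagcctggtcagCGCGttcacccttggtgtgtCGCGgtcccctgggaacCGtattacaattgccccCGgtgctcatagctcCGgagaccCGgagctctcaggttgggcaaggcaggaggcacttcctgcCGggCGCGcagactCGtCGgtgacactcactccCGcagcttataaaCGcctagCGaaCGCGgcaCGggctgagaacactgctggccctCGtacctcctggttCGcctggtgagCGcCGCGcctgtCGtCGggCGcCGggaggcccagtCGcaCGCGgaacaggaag
Retreg2: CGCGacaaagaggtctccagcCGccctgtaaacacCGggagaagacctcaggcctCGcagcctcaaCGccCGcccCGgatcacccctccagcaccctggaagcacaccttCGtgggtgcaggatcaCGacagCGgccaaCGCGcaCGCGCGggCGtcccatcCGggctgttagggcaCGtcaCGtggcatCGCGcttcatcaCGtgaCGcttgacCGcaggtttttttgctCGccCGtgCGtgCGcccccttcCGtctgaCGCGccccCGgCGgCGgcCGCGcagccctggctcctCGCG
Tmc6: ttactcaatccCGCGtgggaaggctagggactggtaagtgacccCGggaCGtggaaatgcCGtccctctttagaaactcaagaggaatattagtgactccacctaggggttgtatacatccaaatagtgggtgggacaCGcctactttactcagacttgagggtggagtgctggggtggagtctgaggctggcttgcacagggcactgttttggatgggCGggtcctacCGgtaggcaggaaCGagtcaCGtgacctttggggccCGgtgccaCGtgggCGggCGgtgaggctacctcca
CG dinucleotides were dense in Retreg2 (39, observed over expected ratio 1.11) and Cnppd1 (31, ratio 0.959), and sparser in Tlcd1 (11, ratio 0.386) and Tll1 (12, ratio 0.790). At the divergent pair of Nek8 and Tlcd1 the promoters differed, with 25 CG and a ratio of 1.00 at Nek8.

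The promoters with the lowest CpG ratio among starts inside a very broad region were those of Myh6 (chr14:54966558-54966857, minus strand), the alpha myosin heavy chain gene of heart muscle, and of Arhgef19 (chr4:141244838-141245137, plus strand), a guanine nucleotide exchange factor gene. They are printed in the same way as examples of very broad regions without a CpG-rich promoter.
Myh6: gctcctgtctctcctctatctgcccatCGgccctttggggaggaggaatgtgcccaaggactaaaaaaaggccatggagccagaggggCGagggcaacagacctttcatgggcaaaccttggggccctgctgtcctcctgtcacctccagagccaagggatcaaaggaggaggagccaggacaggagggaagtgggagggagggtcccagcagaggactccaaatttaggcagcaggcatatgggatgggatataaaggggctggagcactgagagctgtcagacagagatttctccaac
Arhgef19: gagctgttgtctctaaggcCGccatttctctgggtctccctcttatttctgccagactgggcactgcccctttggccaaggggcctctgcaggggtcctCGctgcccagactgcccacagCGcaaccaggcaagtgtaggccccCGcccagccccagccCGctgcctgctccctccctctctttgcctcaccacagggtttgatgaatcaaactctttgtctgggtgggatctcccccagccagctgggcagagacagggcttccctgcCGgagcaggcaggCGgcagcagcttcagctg
Only 2 CG dinucleotides (ratio 0.0833) stand in the Myh6 window and 7 (ratio 0.235) in that of Arhgef19. The Myh6 window holds the letters TATAAA and that of Arhgef19 does not.

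The members were mostly just above the limit. Their median merged width was 2172 bp (quartiles 2066 to 2371), against a median of 681 bp over all shared regions. Of the 266, 226 were under 2500 bp, 40 were at least 2500 bp, and the 6 widest spanned 3003 to 5667 bp. Just inside the limit lay regions of 2003 bp inside Tacc1 and of 2001 bp at Insig1, a regulator of cholesterol synthesis, and 2001 bp at a site 54.9 kb from Tpm1. Just outside it lay a region 1 bp short of it at Dpagt1 and one of 1998 bp near Ndufa4l2, so the limit separates regions of nearly the same width.

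A merged region can be wide because 1 peak is wide or because peaks of several libraries chain together, and both forms were common. In 134 members (50.4%, exact 95% interval 44.2 to 56.5) every library had a single peak, against 82.4% of the 10499 shared regions of at least 1000 but under 2000 bp, which serve as the comparison set of broad regions. Of that set, 8871 were under 1500 bp. In its regions from 1500 bp, nearest in width to the members, the single-peak share was 63.4%. A peak of at least 2000 bp was present in all 4 libraries in 65 members, in at least 1 library in 207, and in no library in 59. The gaps inside split members had a median of 284 bp (182 to 1497 bp, 317 gaps), and no library had more than 3 peaks in a member. Splitting was uneven across libraries, at 55 and 93 members in siChst7 and 72 and 74 in siControl, and 17 members were split in siChst7 replicate 2 alone, against 1, 8 and 7 in siChst7 replicate 1 and siControl replicates 1 and 2. The groups overlapped, and the library with the most split members was also the one with the shortest list. The peaks of a library covered a median of 93.5% of a member's merged width, and the lowest share was 13.6%, at a site 154.8 kb from Cops8, where the summed width was 1306 and 328 bp in siChst7 and 1248 and 601 bp in siControl.

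Some members were nearly the same in every library. An example, picked after its values were seen, lay inside the transcription factor gene Runx1, at chr16:92696619-92698902. Its summed peak width was 2261 and 2276 bp in siChst7 and 2267 and 2263 bp in siControl, with 1 peak in every library. The strongest summits of the 4 libraries lay within 5 bp of each other there. Over all members the strongest summits spread over a median of 62.5 bp, against 61 bp in the comparison set. In 41 members (15.4%) they lay over 500 bp apart, against 7.32% of that set and 1.91% of all shared regions. Such a spread needs a wide region, so these shares depend on the width rule. As a share of merged width, the median spread was 2.91% in members, 4.86% in the comparison set and 8.29% in all shared regions. The widest spread, 2168 bp, was at Tll1.

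**Figure D1:**
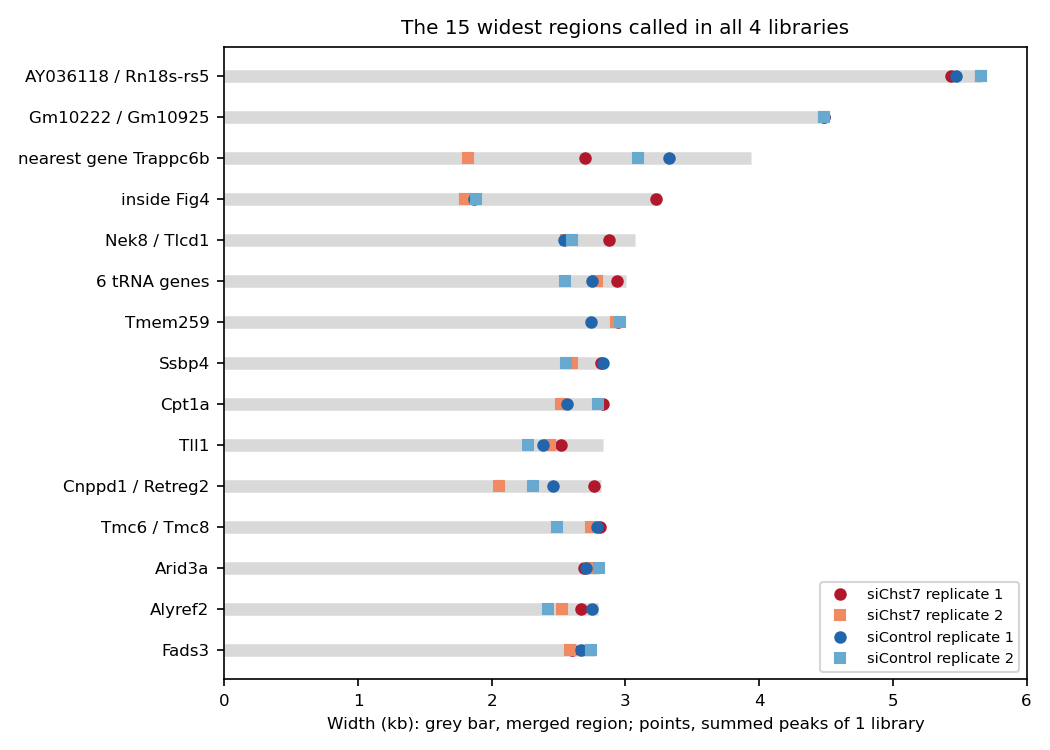
Widths in kb of the 15 widest regions: the grey bar is the merged region and each point the summed peak width of 1 library, siChst7 in red and orange and siControl in blues. At the site near Trappc6b (1822 to 3326 bp) and inside Fig4 (1797 to 3232 bp) the libraries were far apart, while at Gm10222 and Gm10925 (4481 to 4488 bp) they coincided.

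The 2 broadest members lay over pseudogenes of ribosomal and mitochondrial sequence, and gene ends took most of the places after them. First stood 5667 bp at chr17:39843057-39848723, over the ribosomal pseudogene Rn18s-rs5 and an end of the noncoding RNA AY036118. Its peaks summed to 5438 and 5660 bp in siChst7 and 5470 and 5662 bp in siControl, and the groups overlapped. Next was 4488 bp at chr1:24611631-24616118, over the pseudogenes Gm10222 and Gm10925, the second of which RefSeq lists with the mitochondrial synonym mt-Atp6. Here the 4 libraries were within 7 bp of each other, at 4483 and 4481 bp in siChst7 and 4485 and 4488 bp in siControl. Both regions ranked near the top by the authors' −log10 q (mean percentile 99.96 and 99.95 among shared regions) and near the bottom by their fold enrichment (1.32 and 0.900). Whether reads from other copies add to these peaks was not tested.

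In the next place came 3938 bp at chr12:59035088-59039025, 4.07 kb from Trappc6b, a vesicle tethering gene, with 2698 and 1822 bp in siChst7 and 3326 and 3095 bp in siControl. Both siChst7 libraries were the narrower ones here, and every library had 2 or 3 peaks. The region of 3260 bp inside Fig4, which encodes a phosphoinositide phosphatase, rested on 1 library, with 3232 and 1797 bp in siChst7 and 1869 and 1879 bp in siControl. The first of these libraries was high, the other 3 were alike, and the groups overlapped in bp.

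Gene ends filled most of the next places. The shared region of Nek8, a kinase gene of the primary cilium, and Tlcd1 was 3071 bp wide (chr11:78176047-78179117), with 2879 and 2555 bp in siChst7 and 2540 and 2603 bp in siControl. Tmem259 had 2942 and 2932 bp in siChst7, against 2741 and 2960 bp in siControl. Cpt1a, the rate-limiting enzyme of mitochondrial fatty acid oxidation, had 2829 and 2519 bp in siChst7 and 2565 and 2797 bp in siControl (chr19:3323015-3325849). In bp the groups overlapped in each of these 3 regions. After centring on each library's median, as in the siRNA comparison, both siChst7 libraries were the wider ones at Nek8 and Tlcd1. The remaining ones of the 15 widest lay at Ssbp4 (2840 bp), the tolloid-like metalloprotease gene Tll1 (2834 bp), Cnppd1 and Retreg2 (2816 bp), Tmc6 and Tmc8 (2810 bp), the DNA-binding protein gene Arid3a (2802 bp), the mRNA export gene Alyref2 (2797 bp) and the desaturase family gene Fads3 (2772 bp), and at a cluster of 6 tRNA genes on chromosome 19 (3003 bp).

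Most members lay at gene ends. A protein-coding gene had an end within 1 kb of 181 of the 266 (68.0%, exact 95% interval 62.1 to 73.6), against 46.8% of the comparison set (1000 to under 2000 bp) and 22.0% of all shared regions. A wider region reaches more gene ends by its size alone, so gene starts were also counted within 1 kb of each region's midpoint. Starts come from the RefSeq promoter table, which has an entry for 17274 of 21631 coding genes (79.9%), so starts are undercounted in every set. Near the midpoint, a coding start was found in 55.6% of members (49.4 to 61.7), 39.3% of the comparison set and 16.7% of all shared regions. Both shares rose with width. In regions from 1500 to under 2000 bp, 57.8% had a coding gene end within 1 kb and 47.6% a start near the midpoint. Of the other members, 25 (9.40%) were at the end of another kind of gene only, 37 (13.9%) lay inside a coding gene away from its outermost ends, against 28.7% of the comparison set and 40.8% of all shared regions, and 23 (8.65%) lay outside coding genes, against 18.1% and 31.3%. Of the 37 inside a coding gene, 13 held a coding start of the promoter table, as at Runx1 and Numa1, so they lay at an inner start. Regions are not replicates, so these shares describe the lists and were not tested. In all, 230 of 21631 protein-coding genes (1.06%) had a very broad region at an end.

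**Figure D2:**
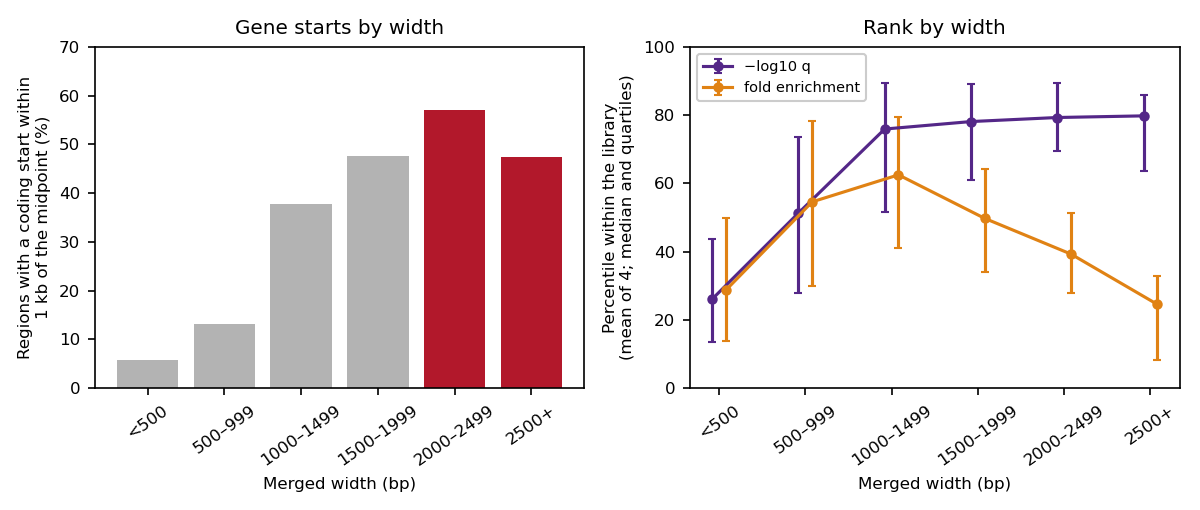
Left, the share of shared regions in each class of merged width that have a coding start within 1 kb of the midpoint, with the very broad classes in red. Right, the median and quartiles of their percentile by −log10 q and by fold enrichment, each a mean of 4 libraries. The share with a start was 57.1% from 2000 to under 2500 bp and 47.5% from 2500 bp, and the percentile by fold was highest from 1000 to under 1500 bp (62.5) and was 24.5 from 2500 bp.

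Coding starts lay inside 154 members (57.9%), and 20 of these held starts of at least 2 genes. A divergent pair was present in 17, with the starts a median of 1011 bp apart (83 to 1566 bp). Examples were Cnppd1 with Retreg2, 1095 bp apart, Flii with Mief2, 1135 bp apart, and Polr2l, a subunit gene of the RNA polymerases, with Tspan4, 83 bp apart. Among regions with a start near the midpoint, 11.5% of very broad ones (6.84 to 17.8), 12.3% of the comparison set and 8.80% of all shared regions had starts on both strands. In most members with the start of 1 gene, the open stretch reached further into the gene than ahead of it. In these 134 members it ran a median of 849 bp upstream and 1387 bp downstream of the outermost start inside. Of them, 89 (66.4%) were longer downstream. The share longer downstream was 66.3% in the comparison set and 57.9% in all shared regions. Where a gene had several starts inside, this measure counts the stretch between them as downstream.

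In 6 members, 8 short coding genes lay entirely inside the open region. These were the histone genes H2ac20, H2ac21, H2ac18, H2bc9, H3c7 and H1f4, which encode core and linker histones, the mitochondrial ribosomal protein gene Mrps34, and 2310039H08Rik. Histone genes were picked by symbol, as H1f, H2ac, H2bc, H3c or H4c with a number. They had an end at 4 members (1.5%, 0.411 to 3.81), against 0.181% of the comparison set and 0.0894% of all shared regions. Of 67 such genes, 9 were involved. The region over H2ac20, H2ac21 and H2bc21 (chr3:96219520-96221707) had summed widths of 1918 and 1938 bp in siChst7 and 2008 and 2039 bp in siControl, so both siChst7 libraries were the narrower ones in bp. At H2ac18 and H3c14 the widths were 2124 and 2079 bp in siChst7 and 2156 and 2152 bp in siControl, with the same order. After centring, the groups overlapped at both.

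At least 1 tRNA gene, a kind transcribed by RNA polymerase III, had an end within 1 kb of 6 members (2.26%, 0.832 to 4.84). The share was 0.676% in the comparison set and 0.304% in all shared regions. These 6 members accounted for 20 of 408 tRNA genes. The cluster on chromosome 19 (chr19:12009540-12012542) had 2938 and 2790 bp in siChst7 and 2749 and 2551 bp in siControl, with both siChst7 libraries the wider ones, also after centring. Another cluster, of 3 tRNA genes on chromosome 5 (chr5:125403994-125406667), had 2107 and 2618 bp in siChst7 and 2046 and 2112 bp in siControl, and the groups overlapped. Histone and tRNA genes have near-identical copies, so their peaks can hold reads of another copy, and the treatment of such reads is not given in the sources used here.

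Of the members, 9 were at least 100 kb from any end of a coding gene, among them the regions at Rn18s-rs5 and at the noncoding gene 2700054A10Rik and one inside Lrmda. The one with the highest −log10 q of all members lay at chr14:19416891-19419241, 114.5 kb from Gm2244 and with no gene at it. The authors' −log10 q there was 2171 and 1939 in siChst7 and 2116 and 2010 in siControl, and its summed widths differed by at most 3 bp. At chr9:3000076-3002294, next to the centromeric end of the chromosome and 332.9 kb from Alkbh8, the −log10 q was 1164 and 1054 in siChst7 and 1098 and 1041 in siControl. With the regions at Rn18s-rs5 and at Gm10222, these were the 4 members with a −log10 q of at least 1000 in some library. Whether reads from repeated sequence add to these 4 was not tested. The sources used here do not say whether such regions were filtered. Of the members inside genes, 2 picked after their values were seen were 2496 bp wide in Kdm6b, a histone demethylase gene, with no coding start in it, and 2359 bp wide in Numa1, a spindle protein gene, with an inner start.

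By strength, the members ranked high in one measure of the authors and low in the other. Among all shared regions, their median percentile by −log10 q was 79.0 and 79.2 in siChst7 and 79.5 and 79.2 in siControl. By fold enrichment it was 35.7 and 38.8 in siChst7 and 36.0 and 36.3 in siControl. For regions of 1000 to under 2000 bp the percentile by fold was 60.0 and 61.7 in siChst7 and 59.8 and 59.8 in siControl, so very broad regions stood lower in every library. By class of width, the median of the mean percentile by fold was 49.7 from 1500 to under 2000 bp and 39.3 from 2000 to under 2500 bp. Below the median by fold were 204 members (76.7%), and 24 (9.02%) were below it by −log10 q. In the top 10% were 58 by −log10 q and 1 by fold, the region at chr14:19416891-19419241. Over the 266 members, Spearman's rank correlation between merged width and mean percentile was -0.38 by fold and -0.087 by −log10 q, as a description over regions that share the 4 libraries. The 4 libraries rank the same regions, and each peak's q and fold come from the same reads as its width.

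**Figure D3:**
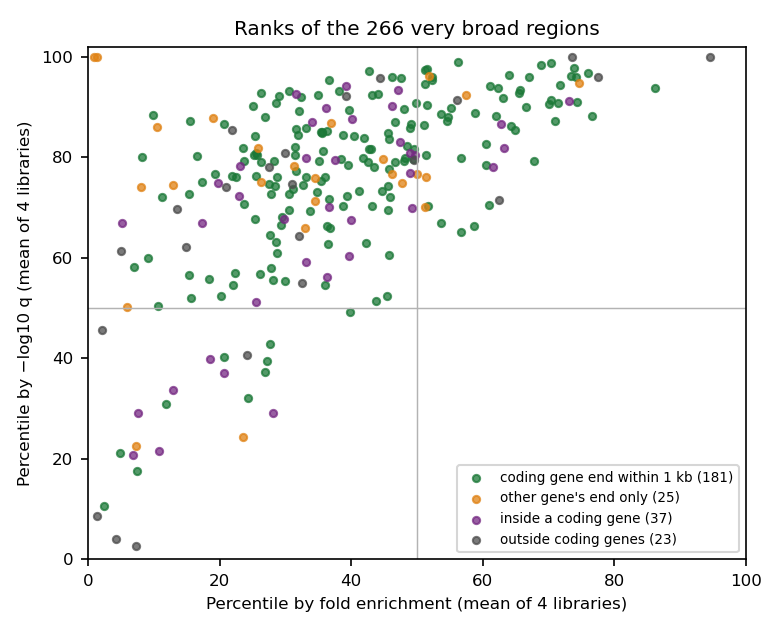
Mean percentile by −log10 q against mean percentile by fold enrichment of the 266 very broad regions among all shared regions, coloured by position, with lines at the median of all shared regions. Most points lie upper left, 204 left of the vertical line and 24 below the horizontal one, and the 2 pseudogene regions of chromosomes 17 and 1 lie in the upper left corner.

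Dusp6, a phosphatase gene that switches off ERK, was the member with a coding gene that ranked highest by −log10 q (mean percentile 99.1). Its −log10 q was 297.9 and 262.3 in siChst7 and 298.7 and 300.02 in siControl, and its summed width 2459 and 2269 bp in siChst7 and 2459 and 2373 bp in siControl (chr10:99261243-99263912). The lowest ranks, besides the sites near Cops8 and Trappc6b, were at a site 19.9 kb from Cd82 (mean percentile 4.06), at Mib2 and Mmp23 (10.6), a ubiquitin ligase and a metalloprotease gene, and at Ch25h (17.6), an enzyme gene that oxidises cholesterol. At Ch25h the −log10 q was 14.3 and 14.5 in siChst7 and 15.5 and 10.0 in siControl, across 2652 bp (chr19:34474682-34477333). A region could therefore be very broad and weak.

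Fibroblast and housekeeping genes were the lists with the most members. Of 20 cell surface and matrix marker genes of fibroblasts, 3 (15%) had a very broad region at an end, against 1.06% of all coding genes. They were Col5a1, a fibrillar collagen chain, Ddr2, a collagen receptor, and Vim, the intermediate filament of mesenchymal cells. Vim had 2366 and 2302 bp in siChst7 and 2364 and 2287 bp in siControl (chr2:13573388-13575753), with single peaks throughout. Col5a1 had 2650 and 2223 bp in siChst7 and 2492 and 2437 bp in siControl. At Ddr2 the spread was larger, with 2410 and 2032 bp in siChst7 and 1831 and 2600 bp in siControl. The groups overlapped at all 3 genes. Twist2, a bHLH factor of mesenchyme, was the 1 gene of 20 mesenchymal transcription factors with a very broad region at an end. Its widths were 2287 and 2221 bp in siChst7 and 2407 and 2095 bp in siControl. Runx1, on the same list, had a very broad region at an inner start, which the counts on this and the other lists leave out.

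Among 20 housekeeping genes, again 3 (15%) were members: the elongation factor gene Eef2, the cyclophilin gene Ppia and the chaperone gene Hsp90ab1. Their merged widths were 2040, 2227 and 2218 bp. Of 23 AP-1 and immediate early genes, 2 (8.70%) were members. Jun, an AP-1 subunit, had 2153 and 2334 bp in siChst7 and 2313 and 2344 bp in siControl (chr4:95051300-95053643). Dusp1, which inactivates p38 and JNK, had 1693 and 1667 bp in siChst7 and 1838 and 2033 bp in siControl. The groups overlapped at Jun, and at Dusp1 both siChst7 libraries were the narrower ones, also after centring.

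The lists of sulfation and proteoglycan genes held 1 member each. Hs6st2, a heparan sulfate 6-O-sulfotransferase gene, was the 1 of 38 glycosaminoglycan synthesis genes (2.63%, against 1.06% of all coding genes), with 1502 and 1500 bp in siChst7 and 1516 and 1328 bp in siControl inside a merged region of 2024 bp. Gpc6, a glypican gene, was the 1 of 22 proteoglycan genes (4.55%), with 1724 and 1399 bp in siChst7 and 2046 and 2029 bp in siControl, the siChst7 libraries both narrower, also after centring. Chst7 itself was no member. Its widest shared region was 1537 bp, with 1472 and 1524 bp in siChst7 and 1512 and 1302 bp in siControl, and the groups overlapped in width. The −log10 q there was 99.8 and 78.9 in siChst7 and 153.3 and 113.3 in siControl, lower in both siChst7 libraries. These are raw values of separate lists. By rank within a library, 20.2% of all shared regions were lower in both siChst7 libraries, so such an order is common. Over all shared regions its median was 37.2 and 28.6 in siChst7 and 37.7 and 37.0 in siControl. The difference at Chst7 was not tested.

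None of the 21 cardiac transcription factor genes, 16 Hippo pathway genes, 25 TGF-beta and BMP genes, 25 cell cycle genes and 20 markers of other cell types had a very broad region at an end, and 2 of 39 HOX genes did, Hoxb7 and Hoxb8 with 1 region between them. With 1.06% of all coding genes having one, lists of this size can hold none at the share of all genes. Mef2c, Gata4 and Tbx5 had no region called in all 4 libraries within 1 kb of their own gene ends, and the widest shared region in the gene body and 5 kb on each side was 1569 bp at Mef2c, 1097 bp at Gata4 and 554 bp at Tbx5. Myh6 was the 1 member of 20 sarcomere genes. Its region of 2279 bp (chr14:54966521-54968799) had 1994 and 994 bp in siChst7 and 1799 and 1538 bp in siControl, where siChst7 replicate 2 was low and the groups overlapped. The line carries a Myh6-eGFP reporter, and reads of the endogenous promoter and of a reporter copy cannot be told apart in a peak list.

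Some gene families had more than 1 member, beside 1.06% of all coding genes. They were picked after their values were seen, so these counts are no evidence about the families. Of 24 Dusp phosphatase genes, 3 were members (Dusp1, Dusp4 and Dusp6), of 3 Gadd45 stress genes 2 (Gadd45a and Gadd45b), of 10 Frizzled receptor genes of Wnt signalling 2 (Fzd2 and Fzd8), and of 5 lysyl oxidase genes, whose enzymes crosslink collagen and elastin, 2 (Lox and Loxl4). At Gadd45b the width was 2067 and 2022 bp in siChst7 and 1969 and 1996 bp in siControl. At Dusp4 it was 2414 and 2343 bp in siChst7 and 2412 and 2368 bp in siControl. At Loxl4 it was 2065 and 1946 bp in siChst7 and 2083 and 2007 bp in siControl. In bp both siChst7 libraries were wider at Gadd45b and the groups overlapped at Dusp4 and Loxl4, and after centring they overlapped at all 3. Further members, also picked after their values were seen, lay at the developmental factor gene Gli3 (2711 bp), the signalling inhibitor gene Socs1 (2434 bp), the transcription elongation inhibitor gene Hexim1 (2310 bp) and the long noncoding RNA gene Malat1 (2662 bp).

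Promoters under very broad regions were mostly rich in CpG, as were those under the regions of 1000 to under 2000 bp. Of the 230 genes with a very broad region at an end, 190 had a RefSeq promoter entry, and 174 promoters had their start inside such a region. The 174 had a median observed over expected CpG ratio of 0.797 (quartiles 0.611 to 0.910), against 0.809 for starts inside the comparison set, 0.766 for starts inside narrower shared regions and 0.586 over all 17274 coding promoters of the table. A GC share of at least 50% together with a ratio of at least 0.6 was met by 126 of the 174 (72.4%), by 79.2% in the comparison set, by 70.7% below 1000 bp and by 46.3% of all promoters.

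**Figure D4:**
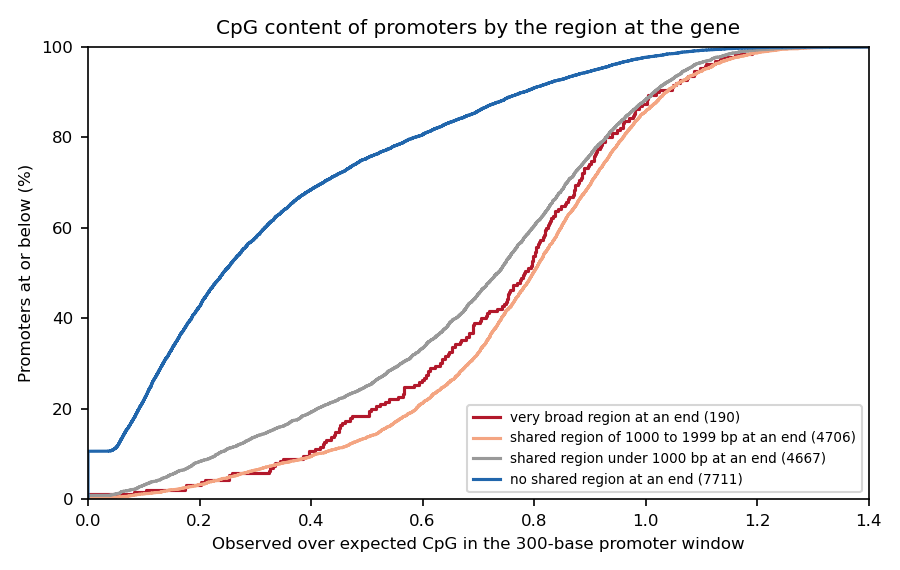
Cumulative share of promoters by observed over expected CpG in the 300-base window, for genes with a very broad region, a shared region of 1000 to under 2000 bp, one under 1000 bp, or no shared region at an end. The medians are 0.787, 0.799, 0.735 and 0.242, and the 3 curves of genes with a region run close together, right of the one without.

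Short motifs were searched on both strands of these windows, as letters only. GGGCGG, a GC box, was present in 135 of the 174 windows (77.6%), in 70.1% of those inside the comparison set and in 46.9% of all promoters. CCAAT was found in 36.8%, 38.5% and 39.6%, in the same order of sets. TATAAA was found in 8.62%, 5.94% and 13.4%, and TGACGTCA, the cAMP response element, in 4.02%, 3.65% and 2.36%. TGANTCA, with any base at N and so a looser string than the AP-1 element, was found in 3.45%, 3.99% and 7.09%. The CCAAT shares differed little between the sets. In the printed promoters, GGGCGG was found in Nek8, Tlcd1, Cpt1a, Retreg2, Tmc6 and Arhgef19, and TATAAA in Cnppd1 and Myh6. A match is a string of letters in the window, not a bound site.

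The siRNA comparison asked whether the width or rank of these regions differed between siChst7 and siControl. No very broad region differed in width past the threshold, which does not show that the widths were alike. The median summed width of the members was 2045 and 1962 bp in siChst7 and 2027 and 2038 bp in siControl, and that of all shared regions 587 and 530 bp in siChst7 and 572 and 565 bp in siControl, with siChst7 replicate 2 the lowest in both. Widths were therefore centred as log2 width minus the median of all shared regions in the same library. The median centred log2 width of the members was then 1.80 and 1.89 in siChst7 and 1.83 and 1.85 in siControl. The siChst7 libraries were the lowest and the highest, with the siControl libraries between. Their means were 1.84 ± 0.062 in siChst7 and 1.84 ± 0.018 in siControl (SD, n = 2 each), a difference of 0.0064 with a two-sided exact permutation p of 1, where 0.333 is the smallest that 4 libraries allow. Without centring the difference was -0.021, of the opposite sign.

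In limma's moderated test of the centred log2 width over all 55907 shared regions with Benjamini-Hochberg adjustment, 0 members and 0 shared regions (0%) passed an adjusted p of 0.05, and the lowest adjusted p was 0.643. At an unadjusted p under 0.05 were 15 of 266 members and 3483 of 55907 shared regions. Of the 15, 6 were wider and 9 narrower in siChst7. None of them passed adjustment, so these counts are no result about the members. The fitted log2 differences of the members had a median of 0.011, with 95% of them between -0.37 and 0.24, against -0.59 and 0.57 over all shared regions. Within groups the log2 widths of members also spread less, with a residual SD of 0.164 against 0.253. The narrower range is therefore no measure of how the siRNA acted on them. Both siChst7 libraries lay above both siControl libraries in 32 members (12%), where the share of all shared regions was 16.3%, and below them in 41 (15.4%), where it was 17.2%. By percentile of −log10 q, 42 members (15.8%) were higher in both siChst7 libraries, beside 20.2% of all shared regions, and 58 (21.8%) lower, beside 20.2%. The median percentile by −log10 q averaged 79.1 ± 0.161 in siChst7 and 79.4 ± 0.218 in siControl (SD, n = 2 each), a difference of -0.275 (exact permutation p = 0.333, the smallest possible).

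**Figure D5:**
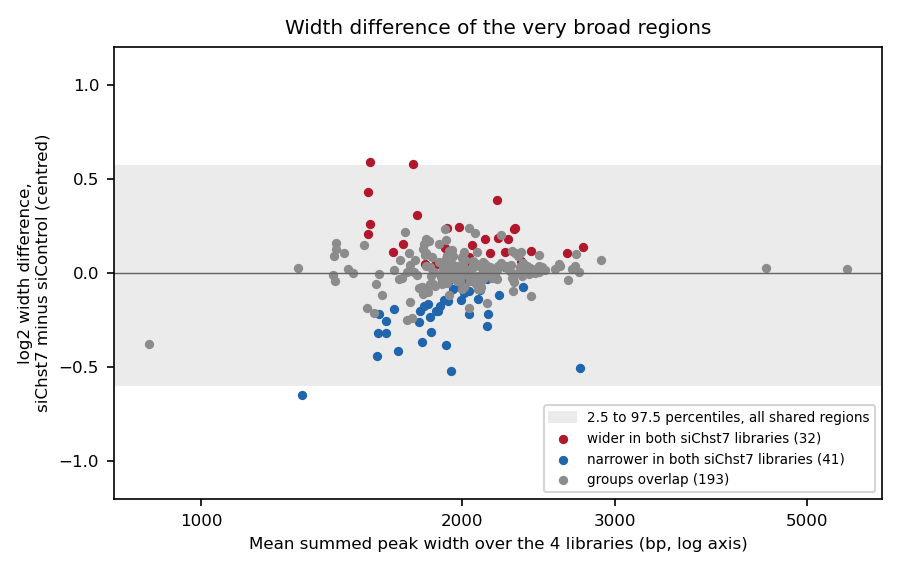
Centred log2 width difference, siChst7 minus siControl, against mean summed width (log axis) of the 266 very broad regions. Red marks the 32 wider and blue the 41 narrower in both siChst7 libraries, grey the 193 whose groups overlap, and the band spans the central 95% of all shared regions (-0.59 to 0.57). Few members lie outside the band, and their log2 widths also spread less within groups than those of all shared regions.

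The members with the largest differences among those whose groups did not overlap in centred width are given as values, since none passed the limma test. A region that is wide in 1 group can reach the limit of 2000 bp through that group alone. At 1110002E22Rik (chr3:138059898-138062063) the summed width was 1982 and 1752 bp in siChst7 and 1416 and 1121 bp in siControl, a log2 difference of 0.59 (SE 0.12, limma adjusted p = 0.649). At Hnrnpa3, an RNA-binding protein gene, it was 1964 and 2191 bp in siChst7 and 1217 and 1649 bp in siControl, a log2 difference of 0.58 (SE 0.18, limma adjusted p = 0.729). Both siChst7 libraries were the wider ones at these genes. A site 234.9 kb from Klf5, at log2 0.43, the region inside Fig4, at 0.39, and that at Cdca3 and Usp5, at 0.31, followed. At Fig4 the groups were apart only after centring, at 2.46 and 1.76 in siChst7 and 1.71 and 1.73 in siControl, and they overlapped in bp.

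In the other direction, the region at Pde10a, a cyclic nucleotide phosphodiesterase gene (chr17:8524148-8526242), had 1168 and 861 bp in siChst7 and 1516 and 1686 bp in siControl, a log2 difference of -0.65 (SE 0.13, limma adjusted p = 0.643). Gng10, a G protein gamma subunit gene (chr4:59034730-59037181), had 1596 and 1562 bp in siChst7 and 2185 and 2429 bp in siControl, a log2 difference of -0.52 (SE 0.098, limma adjusted p = 0.643). Both siChst7 libraries were the narrower ones, and at Gng10 they held 3 and 2 peaks where siControl held 2 and 1. The site near Trappc6b, at log2 -0.51, the region at Mib2 and Mmp23, at -0.44, and that at Trafd1, a regulator gene of innate immune signalling, at -0.41, followed. At Trafd1 the peak was split in both siChst7 libraries and single in both siControl libraries, with 1525 and 1337 bp in siChst7 and 2005 and 1875 bp in siControl. Its merged width of 2005 bp equals the peak of siControl replicate 1, so it passed the limit through siControl.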

How the data were processed

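The files are MACS narrowPeak lists, 1 per library, deposited by the authors in mm10 coordinates, so replicates were not pooled. Tools in the submitters' processing notes are MACS3, Bowtie, bedtools, SAMtools and HOMER, without versions. Filters, duplicate handling and Tn5 shift were not given in the sources used here. Per the authors' deposited lists, the fold enrichment is a ratio of summit signal to local background, the −log10 p and −log10 q are those of the summit, listed to a q-value of 0.01, and the integer score was not used. For comparisons between libraries these values were ranked within a library, and raw values are printed as descriptions.

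Merging, annotation (RefSeq GRCm38.p6 genes and promoters, 1 per gene) and counts used Python 3.11.15, pandas 2.3.3, numpy 2.4.6 and scipy 1.17.1. Widths were fitted with limma 3.58.1 in R 4.3.3, with a trend on mean log2 width. A test of the fit on simulated data planted log2 changes larger than the member differences named here. It does not show whether the fit can find smaller ones. Gene ends are the outermost annotated positions; starts are those of the promoter table. Intervals are exact binomial and cover counting error only. Named regions were the 15 widest, 3 on each side of the limit (1 of them not reported here), the 5 highest and lowest by −log10 q rank, the 5 largest width differences per direction among members whose groups did not overlap, members on 13 gene lists, and Chst7, Mef2c, Gata4, Tbx5 and Myh6. Members and lists were chosen with earlier results of these data known.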

Additional observations from a re-analysis of the deposited data

Results flagged for a closer look

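Outside chromosomes 1 to 19 and X, 4 merged regions of at least 2000 bp were called in all 4 libraries, and no part of the comparisons used them. On the mitochondrial genome, a region was 4649 bp wide, with summed peak widths of 4439 and 4646 bp in siChst7 and 4564 and 4566 bp in siControl. A second mitochondrial region was 3984 bp wide, with 3969 and 3969 bp in siChst7 and 3979 and 3979 bp in siControl. On the unplaced sequence JH584304, a region was 2316 bp wide, with 1697 and 1862 bp in siChst7 and 1895 and 1622 bp in siControl. Another region on it was 2011 bp wide, with 1787 and 1794 bp in siChst7 and 1536 and 1793 bp in siControl.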

How the results depend on the processing

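Of 85 values under alternatives, 64 kept their direction and their side of the threshold or, for counts and shares, stayed within the limits used, 14 moved and 7 reversed, and the cause was not tested except where noted. The 266 regions became 1894 with a limit of 1500 bp, 40 with 2500 bp and 65 where every library needed a single peak of 2000 bp, by construction. The single-peak share of 50.4% became 61.6% at 1500 bp, 35% at 2500 bp, 60.2% with a −log10 q of at least 10, and 54.5 to 59.3% with 1 library left out. The gene-end share of 68.0% became 59.2% at 1500 bp, 77.4% with the ends of all RefSeq genes and 60.9% where the region itself had to hold the end. The width difference of 0.0064 became -0.021 without centring, -0.0014 with quantile normalisation, -0.012 with the widest peak, and -0.034 to 0.055 with 1 library left out, lowest without siChst7 replicate 2. The rank difference of -0.275 became 1.12 by fold enrichment, 0 at 2500 bp, and -0.409 to 0.043 with 1 library left out, highest without siChst7 replicate 1 and also positive without siControl replicate 1. By limma with Benjamini-Hochberg adjustment, 0 to 30 shared regions passed with 1 library left out, 30 without siControl replicate 1 and 8 without siControl replicate 2, where the lone siControl library is assumed to vary like the siChst7 pair, and no member passed in any setting. Centring on the members fixes the width difference at 0. The replicate block enters the limma fit only, and with it 0 members passed. The width difference of 0.0064 and the rank difference of -0.275 cannot change with the block, although both count among the 64. Same-numbered libraries correlated at 0.00011 over shared regions and 0.27 over members, and 2 pairs do not show that the numbers pair samples. Leaving out the 4 regions with a −log10 q of at least 1000, chosen after seeing the data, gave 262 regions, 50% single-peak and 69.1% at a gene end. Read depth is unknown, and siChst7 replicate 2 had the shortest list.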
